A study of Mus musculus with 10 samples.

Results

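Semaphorins are guidance ligands of axons and synapses, and plexins and neuropilins are their receptors. In the mouse genome annotation they comprise 31 protein-coding genes among the 54838 gene identifiers of the count tables, chosen by their symbols alone: 7 secreted class 3 semaphorins, 13 semaphorins of classes 4 to 7 that sit in the membrane, 9 plexins and 2 neuropilins. They were compared between dorsal and ventral hippocampal precipitates of translating mRNA from Drd2-Cre;Eef1a1LSL.eGFPL10a/+ mice on the C57BL/6 background. In these mice the ribosomal protein L10a, tagged with EGFP, is made in cells with Drd2-Cre activity, and translating ribosome affinity purification (TRAP) with antibodies to EGFP pulls down their ribosome-bound RNA. Males of about 10 weeks were used, without further treatment or genotype contrast, and both groups carry the same alleles. There were 5 dorsal and 5 ventral libraries, and 1 library held the pooled tissue of 5 mice, so that a replicate was a pool. Both groups came from the hippocampi of the same mice, each divided into a dorsal and a ventral part, and which pools share mice is not given in the sources used here. Drd2-Cre marks the glutamatergic mossy cells of the dentate hilus, and the study also describes tagged interneurons of the CA fields and tagged cells of the ventral subiculum, a region that was dissected away.

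Semaphorins bind plexins through their Sema domain, and class 3 semaphorins mostly do so through a neuropilin, which has no signalling domain of its own. Sema3e is an exception that can bind Plxnd1 directly. Inside the cell, plexins switch off small GTPases of the R-Ras and Rap kind and act on the cytoskeleton through CRMP proteins, MICAL oxidases and kinases such as Cdk5 and Limk1. In the hippocampus these proteins are known for steering mossy fibres and for shaping spines and synapses of dentate granule cells.

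Between 11138676 and 16779821 read pairs per dorsal library and between 11618625 and 20594364 per ventral library were counted on genes, and 3 counts, taken as the floor, corresponded to 0.146 to 0.269 CPM, the counts of a gene scaled to the size of its library. Of 8 mossy cell markers, all but Csf2rb2 had counts in every library. The summed level of the 8 was 1928 to 2129 CPM in dorsal and 1952 to 2249 CPM in ventral libraries. Gria2 had the largest mean of the 8 in both groups, so that this sum does not measure mossy cell RNA alone. Single markers within this sum moved in opposite directions. Gria2 (means of 1143 CPM dorsally and 651 CPM ventrally) and Gria3 were called dorsal. Calb2 (65.2 CPM dorsally and 616 CPM ventrally) and Satb1 were called ventral. Drd2 itself averaged 28.1 CPM dorsally and 20.7 CPM ventrally, whereas Csf2rb2 was below the expression filter. RNA of other cells was also present, and part of it moved with the axis. The sum of 8 oligodendrocyte markers was 2455 to 2922 CPM in dorsal against 911 to 1748 CPM in ventral libraries, and 4 of the 8 were called dorsal. For 6 astrocyte markers the sums were 1834 to 2088 CPM and 660 to 1212 CPM, with 4 called dorsal and Aldh1l1 called ventral. The 5 CA3 pyramidal cell markers summed to 337 to 417 CPM in dorsal and 269 to 299 CPM in ventral libraries. Of 9 GABAergic markers, 3 were called ventral, at sums of 3414 to 4594 and 4087 to 5341 CPM. Gad2, which was not called, made up most of these sums, with means of 2853 CPM dorsally and 3174 CPM ventrally. Microglial sums were 18.0 to 41.5 CPM and endothelial sums 8.10 to 41.1 CPM over all 10 libraries, and no list was at 0. Read pairs that fell on no gene made up 21.8 to 33.9% of pairs in dorsal and 11.6 to 19.3% in ventral libraries. Among the values of the family, dorsal library 2 and ventral library 2 held 7 of the 8 that stood far from the rest of their group, and values without these libraries are given beside the genes concerned. The part of the marker and read differences in the values below was not tested, and in pooled precipitates fewer cells of a type cannot be told apart from less RNA per cell.

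Shown is the DNA just before the start of 3 of the genes called dorsal below, from RefSeq's promoter windows on build GRCm38.p6. Each runs 5′ to 3′ on the plus strand and covers up to 250 bases before the start, less those in an annotated exon of the gene itself. Capitals mark the GC box GGGCGG or its reverse complement CCGCCC. The stretch for Sema5a lies at chr15:32244563-32244809, that for Sema3e at chr5:14025026-14025275 and that for Plxnb3 at chrX:73756853-73757089. The Sema3e and Plxnb3 stretches lie between genes, and that of Sema5a overlaps Snhg18, a long noncoding RNA gene, in 100 exonic bases. Windows of Sema4d, also called dorsal, lie inside the Sema4d gene and are not shown, and Plxna4 had no window.
Sema5a: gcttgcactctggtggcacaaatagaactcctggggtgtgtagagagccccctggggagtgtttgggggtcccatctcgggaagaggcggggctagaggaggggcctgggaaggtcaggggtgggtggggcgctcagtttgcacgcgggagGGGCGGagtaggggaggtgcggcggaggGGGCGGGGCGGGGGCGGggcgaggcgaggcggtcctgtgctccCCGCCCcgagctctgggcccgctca
Sema3e: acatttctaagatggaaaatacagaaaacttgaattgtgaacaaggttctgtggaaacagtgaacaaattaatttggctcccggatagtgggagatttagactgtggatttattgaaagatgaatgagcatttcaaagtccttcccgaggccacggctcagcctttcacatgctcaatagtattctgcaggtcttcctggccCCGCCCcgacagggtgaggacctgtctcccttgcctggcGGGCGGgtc
Plxnb3: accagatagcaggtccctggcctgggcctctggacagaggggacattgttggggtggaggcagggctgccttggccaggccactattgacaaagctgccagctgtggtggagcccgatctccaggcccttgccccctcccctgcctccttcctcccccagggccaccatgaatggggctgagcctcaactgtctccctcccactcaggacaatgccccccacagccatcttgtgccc

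Over the full 250 bases the Sema5a window was 72.0% G or C with 17 CpG pairs, that of Plxnb3 65.2% with 3 and that of Sema3e 48.0% with 7, against medians of 52.4% and 6 over 32851 windows. The GC box was found at 5 places in the Sema5a window, counting overlapping matches on both strands, at 2 in the Sema3e window and at none in that of Plxnb3. It occurred in 27 of 37 windows of the family, which belong to 26 genes, and in 32.7% of all windows. The 37 windows had medians of 64.0% G or C and 13 CpG pairs, above the medians of all windows. The part of this base composition in the motif counts was not tested. The TATA box TATAAA was in none of the 37 family windows and in 12.4% of all, and the TCF/LEF letters CTTTGAT were in 1 and in 3.21%, each searched on both strands. None of the 3 motifs overlaps another in its letters. These matches describe the letters in these windows alone.

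Of the 31 genes, 30 passed the expression filter of more than 1 CPM in at least 2 libraries. Sema3g, a secreted semaphorin, did not, with 2 to 12 counts per library. A gene was called when its adjusted p in the quasi-likelihood test of edgeR, corrected over all 16806 tested genes, was below 0.05 and the log2 ratio of mean CPM plus 1 exceeded 0.58 in either direction. By this rule 5 of the 30 were called dorsal, namely Sema5a, Plxna4, Sema3e, Sema4d and Plxnb3, where 15.7% of all tested genes and 11.4% of protein-coding ones were called dorsal. None was called ventral, where 9.85% of all genes and 10.3% of protein-coding ones were, and in either direction the shares were 25.5% and 21.7%. Of the 30, 12 had an unadjusted p below 0.05, where 44.8% of all genes and 42.9% of protein-coding ones did, and of the 12 Plxnd1 alone was lower in dorsal libraries. The DESeq2 test gave 5 dorsal and 0 ventral calls. The share of dorsal calls, 16.7%, was near that background. With values corrected for GC content and exonic length, 9 of the 30 (30%) were called dorsal, where 15.6% of all genes were, and with both libraries numbered 2 left out it was 8 of 29 (27.6%) against 17%.

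Plxna2 and Nrp2 also had an adjusted p below 0.05 but stayed under the fold threshold, so that 7 of the 30 passed the test alone, against 33.6% of all genes. Fold changes were above 0, that is toward dorsal, in 23 and below 0 in 7 of the 30, with a median log2 fold change of 0.35 against -0.0044 over all tested genes and -0.041 over protein-coding ones. Dorsal and ventral libraries did not overlap in Sema5a, Plxna4 and Nrp2, which is 3 of 30, where 18.2% of all genes did not overlap. By role, 1 of 6 tested secreted semaphorins was called, 2 of 13 membrane or GPI-anchored ones, 2 of 9 plexins and 0 of 2 neuropilins.

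**Figure D1:**
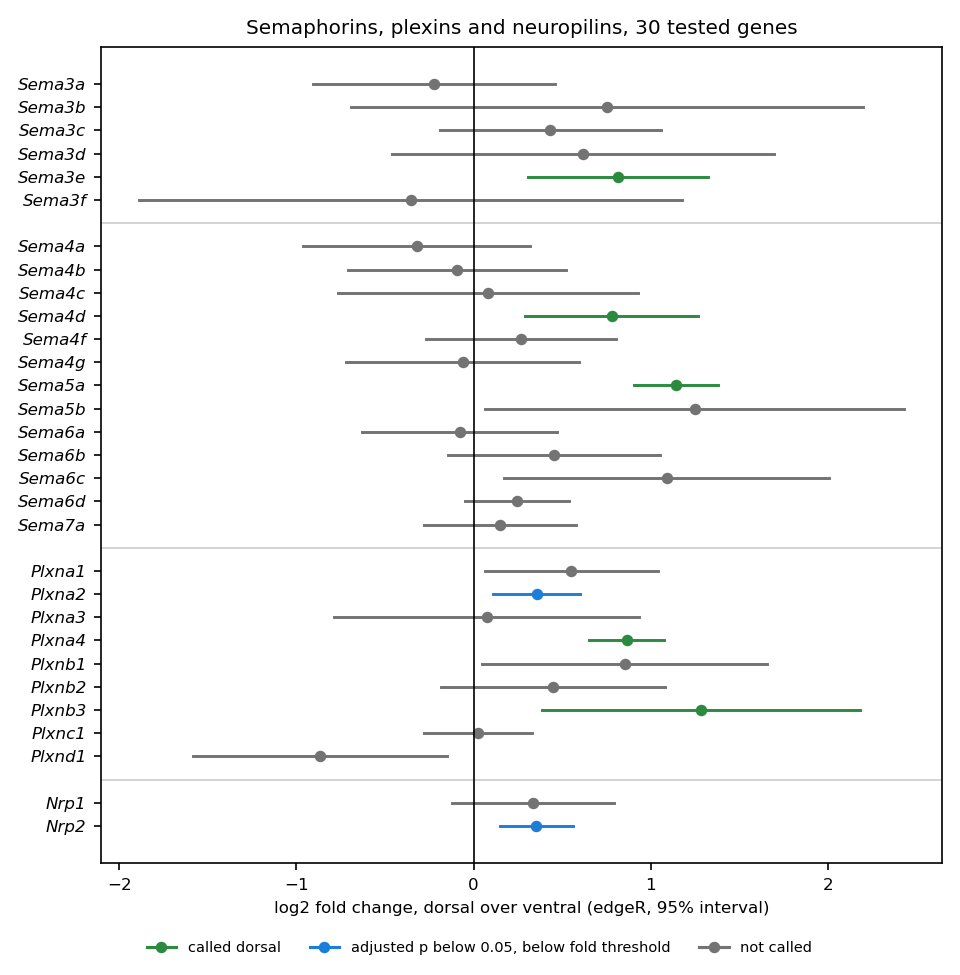
Log2 fold change, dorsal over ventral, of the 30 tested genes on the x axis with 95% intervals from edgeR, in rows by role: secreted semaphorins, membrane and GPI-anchored semaphorins, plexins and neuropilins. Green marks the 5 genes called dorsal and blue marks Plxna2 and Nrp2, whose intervals also lie above 0. Plxnd1, at -0.87, is the lowest point, and its interval lies below 0 although its adjusted p is above 0.05.

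Among the ligands, the membrane semaphorin Sema5a (ENSMUSG00000022231, chr15:32244810-32696341, plus strand), which carries thrombospondin repeats and is known to limit synapse formation on dentate granule cells, was higher in dorsal libraries. It had 252, 188, 205, 207 and 190.2 CPM in dorsal libraries 1 to 5 and 105, 96.6, 81.3, 90.3 and 96.5 CPM in ventral libraries 1 to 5. The dorsal range began well above the end of the ventral range. Means were 208 ± 25.6 CPM and 93.9 ± 8.71 CPM (SD, n = 5 each), a 2.21-fold difference with a log2 fold change of 1.14 (SE 0.11, edgeR adjusted p = 1.99e-05). Sema5b, the other class 5 semaphorin, was scarce at 1.65 to 7.99 CPM dorsally and 0.333 to 2.62 CPM ventrally. Its highest value was in dorsal library 2, and its log2 fold change of 1.25 (95% interval 0.0661 to 2.43) did not pass the test (edgeR adjusted p = 0.0938). Without that library it was 0.58 with an adjusted p of 0.343.

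Of the secreted class, Sema3e (ENSMUSG00000063531, chr5:14025276-14256689, plus strand), a repulsive cue for vessels and axons, was the most abundant and the single one called. Its levels were 59.6, 30.5, 87.3, 71.0 and 86.4 CPM in dorsal libraries 1 to 5 and 49.8, 33.3, 35.0, 39.2 and 31.9 CPM in ventral libraries 1 to 5. Dorsal library 2, at 30.5 CPM, was below every ventral library, and the other dorsal libraries were above all ventral ones. The means of 66.9 ± 23.4 CPM and 37.8 ± 7.24 CPM (SD, n = 5 each) gave a log2 fold change of 0.81 (SE 0.24, edgeR adjusted p = 0.0183). The call was lost without dorsal library 5 (adjusted p = 0.0502) and without ventral library 5 (0.0507). The adjusted p was 7.62e-04 without dorsal library 2, and 0.0501 once GC content and exonic length were corrected for.

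The other secreted semaphorins were lower and not called. Sema3c had 12.9 to 31.2 CPM dorsally and 10.2 to 26.9 CPM ventrally, the highest ventral value being that of library 2, without which its log2 fold change was 0.71 with an edgeR adjusted p of 0.0423 in place of 0.267. Sema3a, the classic collapsing factor of growth cones, stood at 2.66 to 7.41 and 3.94 to 8.78 CPM, with a log2 fold change of -0.23 (95% interval -0.91 to 0.46). Sema3d, Sema3b and Sema3f reached at most 5.55, 3.64 and 1.30 CPM in any library, and Sema3f had no count in 1 dorsal and 1 ventral library. Intervals of these 3 log2 fold changes spanned more than 2 units each.

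Sema4d (ENSMUSG00000021451, chr13:51685529-51793747, minus strand), a transmembrane ligand of plexin-B1 that oligodendrocytes are known to make, was the called member of class 4. Its libraries held 23.1, 27.2, 52.6, 35.9 and 44.7 CPM in dorsal libraries 1 to 5 and 22.9, 28.6, 13.8, 21.6 and 20.7 CPM in ventral libraries 1 to 5. The groups overlapped, since dorsal libraries 1 and 2 lay within the ventral range. Its means were 36.7 ± 12.2 CPM and 21.5 ± 5.29 CPM (SD, n = 5 each), with a log2 fold change of 0.78 (SE 0.23, edgeR adjusted p = 0.0188). Oligodendrocyte markers moved the same way without overlap between the groups (2455 to 2922 against 911 to 1748 CPM), and their part in the Sema4d difference was not tested.

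Over both groups together, the most abundant member of class 4 per exonic length was Sema4f, although Sema4d was higher than Sema4f in dorsal libraries (4.78 against 4.33 CPM per kilobase). Sema4f had 18.1, 34.8, 17.2, 22.8 and 21.8 CPM in dorsal libraries 1 to 5 and 20.5, 29.5, 9.71, 18.7 and 18.3 CPM in ventral libraries 1 to 5. These groups overlapped widely, and the log2 fold change was 0.27 (95% interval -0.27 to 0.80, edgeR adjusted p = 0.436). Sema4a, Sema4b, Sema4c and Sema4g had mean levels of 2.94 to 9.14 CPM in either group and log2 fold changes from -0.32 to 0.0799, none past the test. Sema4c shares 7.27% of its exonic length with D430040D24Rik on the opposite strand, and its value is uncertain to that extent.

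Sema6d, a transmembrane ligand of plexin-A1, was the most abundant gene of the whole family per exonic length, at 18.2 CPM per kilobase in dorsal and 15.4 in ventral libraries. Its levels were 160.5, 213, 205, 185 and 195 CPM in dorsal libraries 1 to 5 and 172, 119, 214, 155 and 151 CPM in ventral libraries 1 to 5. The highest library of all was ventral library 3 and the lowest ventral library 2, so that the groups overlapped, with a log2 fold change of 0.24 (95% interval -0.0510 to 0.54, edgeR adjusted p = 0.185). This interval ends below that of Sema5a, which runs from 0.91 to 1.38. Sema6c had 2.60 to 8.38 CPM in dorsal libraries and 1.55 to 6.87 CPM in ventral ones, where library 2 held the maximum and the other 4 did not exceed 2.21 CPM. The log2 fold change of Sema6c was 1.09 (95% interval 0.17 to 2.01, edgeR adjusted p = 0.0637), and without ventral library 2 the adjusted p was 0.00898. Sema6b, whose lowest value was in dorsal library 1 (7.62 CPM), ranged otherwise from 12.7 to 36.8 CPM, with a log2 fold change of 0.45 and an adjusted p of 0.225, or 0.0163 without that library. Sema6a had a log2 fold change of -0.0788 (95% interval -0.63 to 0.47), which without ventral library 2 was 0.0852.

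Sema7a, the GPI-anchored member, which also binds integrins, had 11.9, 32.5, 27.5, 23.8 and 24.4 CPM in dorsal libraries 1 to 5 and 20.8, 23.6, 20.1, 21.5 and 23.9 CPM in ventral libraries 1 to 5. Dorsal libraries spanned the ventral range on both sides, and the log2 fold change was 0.15 (95% interval -0.28 to 0.58, edgeR adjusted p = 0.589).

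**Figure D2:**
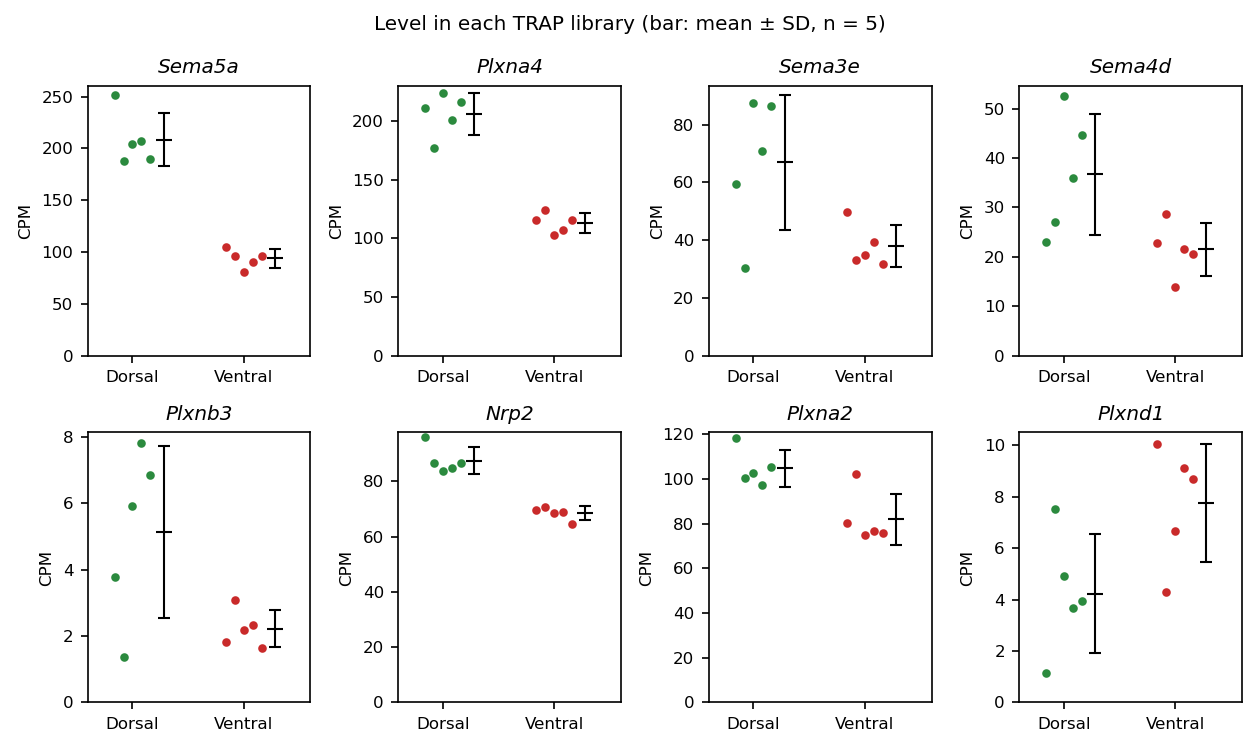
CPM on the y axis, 1 point per library, for 8 genes in dorsal (green) and ventral (red) libraries, with the mean ± SD beside each group (n = 5). Points of both groups separate fully in Sema5a, Plxna4 and Nrp2, while in Sema3e, Sema4d, Plxnb3, Plxna2 and Plxnd1 the ranges of the groups overlap.

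Among the receptors, Plxna4 (ENSMUSG00000029765, chr6:32144268-32588192, minus strand), a partner of neuropilins in the class 3 receptor and a receptor of class 6 semaphorins, was the most abundant plexin and was higher in dorsal libraries. Values were 211, 177, 223, 201 and 216 CPM in dorsal libraries 1 to 5 and 115, 124, 103, 107 and 115 CPM in ventral libraries 1 to 5. All dorsal libraries were above all ventral ones. With means of 206 ± 17.9 CPM and 113 ± 8.44 CPM (SD, n = 5 each), the difference was 1.82-fold, with a log2 fold change of 0.86 (SE 0.0992, edgeR adjusted p = 6.45e-05). A share of 0.78% of its exonic length overlaps the antisense gene Plxna4os3.

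Plxna2 (ENSMUSG00000026640, chr1:194618218-194816869, plus strand), a known receptor of Sema5a and Sema6a in the hippocampus, had 118, 100.2, 102, 97.2 and 105 CPM in dorsal libraries 1 to 5 and 80.4, 102, 75.0, 76.5 and 75.9 CPM in ventral libraries 1 to 5. Ventral library 2 was the highest of its group and stood among the dorsal libraries. The log2 fold change was 0.36 (SE 0.11, edgeR adjusted p = 0.0274), a difference past the test but under the fold threshold. Without ventral library 2 it was 0.44 (adjusted p = 0.00626). The test was no longer passed without dorsal library 5 (0.0551), ventral library 4 (0.0671) or ventral library 5 (0.0655), nor with no expression filter (0.0801). Plxna1 shares 10.7% of its exonic length with Gm26811 on the opposite strand, so that its value is uncertain, and it had 18.7 to 36.5 and 13.3 to 34.5 CPM. Its log2 fold change of 0.55 (95% interval 0.0627 to 1.04) did not pass (edgeR adjusted p = 0.0752), but did without ventral library 2 (0.0136) or dorsal library 1 (0.0262). Plxna3 was at 1.64 to 7.81 and 2.55 to 5.16 CPM, with a log2 fold change of 0.0745 (95% interval -0.79 to 0.94).

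In the plexin-B class, Plxnb3 (ENSMUSG00000031385, chrX:73757090-73772514, plus strand), a receptor of Sema5a known from oligodendrocytes, had the largest log2 fold change of the 30 genes at a low level. It had 3.76, 1.36, 5.93, 7.81 and 6.84 CPM in dorsal libraries 1 to 5 and 1.83, 3.08, 2.20, 2.34 and 1.65 CPM in ventral libraries 1 to 5, from 21 to 130 counts. The lowest of all libraries was dorsal library 2, and the other 4 dorsal libraries were above the ventral ones. The log2 fold change of 1.28 (SE 0.42, edgeR adjusted p = 0.0304) kept its direction throughout, but the call was lost when any of 6 of the 10 libraries (dorsal 3, 4 or 5, ventral 1, 4 or 5) was left out, with adjusted p values from 0.00262 to 0.1002 over all 10. The oligodendrocyte markers given above moved with the same groups, and their part in it was not tested.

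Plxnb2, the most abundant plexin-B per exonic length, had 4.23, 5.91, 7.43, 7.75 and 6.21 CPM in dorsal libraries 1 to 5 and 3.38, 2.20, 7.60, 5.19 and 5.24 CPM in ventral libraries 1 to 5. Its groups overlapped, with a log2 fold change of 0.45 (95% interval -0.18 to 1.08, edgeR adjusted p = 0.257). Plxnb1, the receptor of Sema4d, had 3.20 to 15.0 CPM dorsally and 3.04 to 5.06 CPM ventrally, and dorsal library 2 held its maximum. Its log2 fold change was 0.85 (95% interval 0.0489 to 1.66, edgeR adjusted p = 0.0924), and without dorsal library 1 the adjusted p was 0.0437. Without dorsal library 2 the log2 fold change was 0.38 and the adjusted p 0.303.

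Plxnc1, the receptor of Sema7a, had 30.95, 43.1, 44.2, 36.3 and 38.4 CPM in dorsal libraries 1 to 5 and 40.9, 28.1, 42.3, 38.3 and 39.8 CPM in ventral libraries 1 to 5. Both groups covered much the same range, with means of 38.6 ± 5.37 CPM and 37.9 ± 5.67 CPM and a log2 fold change of 0.0251 (95% interval -0.28 to 0.33, edgeR adjusted p = 0.911), or -0.0547 without ventral library 2. Plxnd1, the receptor that binds Sema3e without a neuropilin, was the plexin whose log2 fold change was below 0. Its levels were 1.13, 7.54, 4.91, 3.66 and 3.93 CPM in dorsal libraries 1 to 5 and 10.04, 4.31, 6.67, 9.11 and 8.69 CPM in ventral libraries 1 to 5. Dorsal libraries 2 and 3 lay within the ventral range and ventral libraries 2 and 3 within the dorsal range, and the log2 fold change of -0.87 (95% interval -1.58 to -0.15) did not pass (edgeR adjusted p = 0.0590). Without dorsal library 2 it was -1.18 with an adjusted p of 0.0175, and without ventral library 2 it was -0.99 with 0.0307. Endothelial cells are known to express Plxnd1, and the endothelial marker sums of the groups overlapped, at 11.5 to 24.7 CPM in dorsal and 8.10 to 41.1 CPM in ventral libraries. Emcn and Slco1c1 made up most of these sums, with means of 7.27 and 6.95 CPM dorsally and 7.26 and 7.06 CPM ventrally. Of the 6 endothelial markers, 5 had a log2 fold change below 0, as Plxnd1 did, with a median of -0.84. None passed the test, and Cdh5 (-1.29, adjusted p = 0.0636) and Ly6c1 (-1.15, adjusted p = 0.0660) came nearest. Their part in the Plxnd1 values was not tested.

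Of the co-receptors, Nrp2 (ENSMUSG00000025969, chr1:62703285-62818695, plus strand), which binds Sema3f and other class 3 ligands as well as VEGF, had 96.1, 86.5, 83.7, 84.6 and 86.5 CPM in dorsal libraries 1 to 5 and 69.7, 70.8, 68.5, 69.0 and 64.4 CPM in ventral libraries 1 to 5. The lowest dorsal library was above the highest ventral one, and spread within groups was small. Means of 87.5 ± 4.95 CPM and 68.5 ± 2.44 CPM (SD, n = 5 each) gave a log2 fold change of 0.35 (SE 0.0961, edgeR adjusted p = 0.0131), under the fold threshold. The adjusted p stayed below 0.05 with any 1 library left out and was 0.0940 with no expression filter. Nrp1, the receptor of Sema3a, had 18.4 to 30.7 CPM dorsally and 12.4 to 24.3 CPM ventrally. Its log2 fold change of 0.33 (95% interval -0.12 to 0.79) was close in size to that of Nrp2 but did not pass (edgeR adjusted p = 0.241). Per exonic kilobase, the ratio of Nrp2 to Nrp1 was 3.31 ± 0.624 dorsally and 3.43 ± 1.09 ventrally (SD, n = 5 each), and these overlapped.

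Levels of different genes can be set side by side per exonic kilobase. On this scale the order over both groups was Sema6d, Plxna4, Sema5a, Sema7a, Nrp2, Sema3e, Sema6b and Plxna2, and the lowest were Sema3b, Sema3f and Sema3g. Plxna4 had 14.6 CPM per kilobase in dorsal and 8.01 in ventral libraries, Sema5a 11.2 CPM per kilobase in dorsal and 5.03 in ventral libraries and Nrp2 7.39 CPM per kilobase in dorsal and 5.78 in ventral libraries. In ventral libraries the mean of Sema5a was below those of Sema7a (6.66) and Nrp2, and in dorsal libraries above both. Sema3g was at 0.106 and 0.0737 CPM per kilobase.

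**Figure D3:**
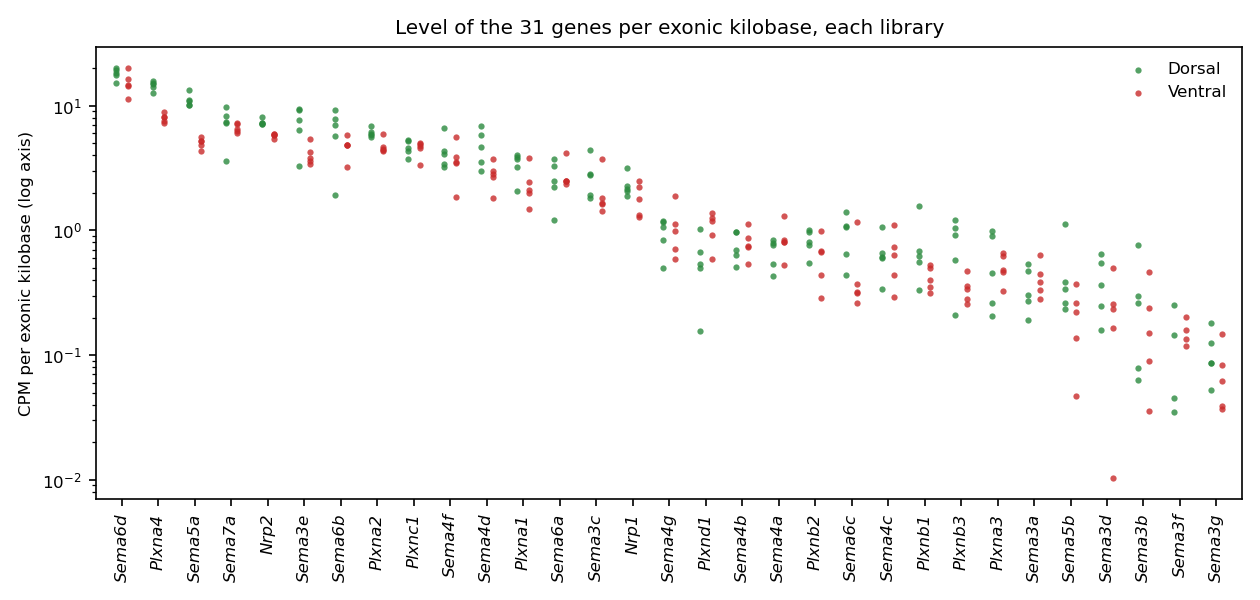
CPM per exonic kilobase on a log y axis for the 31 genes, ordered by their mean over both groups, 1 point per library (dorsal green, ventral red). Values of 0, in 2 libraries of Sema3f, are not drawn. Sema6d, Plxna4 and Sema5a lead, and the scatter between libraries widens toward the scarce genes at the right.

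The level of each role was summed per exonic kilobase in every library. Semaphorins together had 58.6, 69.2, 78.3, 71.9 and 73.4 CPM per kilobase in dorsal and 54.0, 55.9, 49.8, 51.8 and 49.6 in ventral libraries 1 to 5. Plexins had 30.3 to 34.5 and 21.2 to 24.0, and neuropilins 9.19 to 10.4 and 7.16 to 8.27. In these 3 sums dorsal and ventral libraries did not overlap, whereas they did in the sums of secreted semaphorins (11.2 ± 2.37 against 7.18 ± 1.21) and of membrane and GPI-anchored ones (59.1 ± 7.40 against 45.05 ± 1.63). In the plexin sum, Plxna4 and Plxna2 made up 64.3 ± 4.71% dorsally and 56.4 ± 3.08% ventrally (SD, n = 5 each), and Sema5a and Sema6d made up 42.1 ± 4.33% and 39.3 ± 7.11% of the semaphorin sum. The ratio of semaphorins to plexins and neuropilins was 1.68 ± 0.131 dorsally and 1.73 ± 0.0626 ventrally, with overlapping ranges. No test was made of sums over the family.

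**Figure D4:**
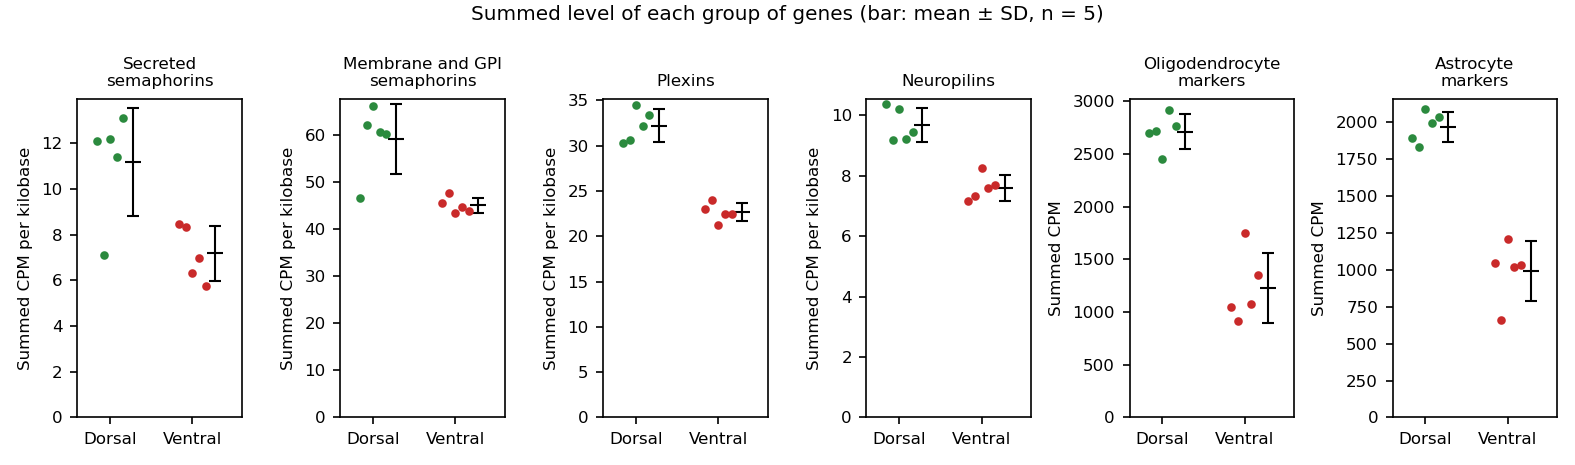
Summed level per library, in CPM per exonic kilobase for the 4 roles of the family and in CPM for the oligodendrocyte and astrocyte markers, with mean ± SD (n = 5). Plexins and neuropilins separate dorsal (green) from ventral (red) libraries, as do both marker sums, while 1 dorsal library falls to the ventral range in each semaphorin panel.

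Among genes of the same pathway outside the family, more were called ventral than dorsal, but not after a correction for GC content and length. Of 58 listed genes for other receptors and co-receptors, VEGF-family ligands of neuropilins and cytoplasmic signalling, 51 were tested. Of these, 4 were called dorsal, where 15.7% of all genes were, and 9 ventral, where 9.85% were. The median log2 fold change was -0.25, with 13 above and 38 below 0. With that correction the split was 5 dorsal and 5 ventral, of which 8 were among the 13. Of all genes, 15.6% were then called dorsal and 11.2% ventral. The genes Pgf, Crmp1, Arhgef11, Gipc1 and Limk1 were then not called. Without that correction and without a fold threshold, 21 of the 51 had an edgeR adjusted p below 0.05, where 33.6% of all genes did.

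Of the receptors, Met, the hepatocyte growth factor receptor, which can associate with B plexins, had 10.6, 14.4, 6.13, 7.87 and 7.78 CPM in dorsal libraries 1 to 5 and 0.610, 4.23, 0.507, 0.569 and 0.142 CPM in ventral libraries 1 to 5. All dorsal libraries were above all ventral ones, with a log2 fold change of 3.22 (SE 0.53, edgeR adjusted p = 5.69e-04), at 3 to 221 counts. Integrin beta 1 (Itgb1), a receptor of Sema7a, was 18.0 to 47.4 CPM dorsally and 10.7 to 19.8 CPM ventrally (log2 fold change 0.98, SE 0.27, edgeR adjusted p = 0.0126). The integrin alpha 1 gene Itga1, which pairs with it, was 0.470 to 3.64 and 0.880 to 9.46 CPM and called ventral (log2 fold change -1.74, SE 0.49, adjusted p = 0.0161). Pgf, a VEGF-family ligand of Nrp1, was called ventral at 0.975 to 1.92 and 0.943 to 5.28 CPM (log2 fold change -1.26, adjusted p = 0.0440), the 1 call among 5 such ligands. That call was lost in 9 of the 10 fits with 1 library left out, all but that without ventral library 1, and with upper-quartile factors. The calls of Met, Itgb1 and Itga1 held in all 10.

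In the cytoplasmic group, 7 of 37 were called ventral and 2 dorsal. Kalrn, an exchange factor of dendritic spines and the partner with the highest CPM, had 6704, 4282, 4006, 5711 and 4962 CPM in dorsal libraries 1 to 5 and 9664, 11878, 12228, 10606 and 12039 CPM in ventral libraries 1 to 5. Its ventral libraries were all above its dorsal ones (log2 fold change -1.14, SE 0.13, edgeR adjusted p = 5.65e-05). Scaled to exonic kilobases, mean Kalrn was below Dpysl2 dorsally (213 against 243) and above it ventrally (469 against 288). The other ventral calls were Gipc1, an adaptor that binds neuropilin-1 (-0.78), Limk1, a cofilin kinase (-0.72), Arhgef11, an exchange factor bound by B plexins (-0.70, with 12.5% of its exonic length shared), Ranbp9 (-0.69), Cdk5 (-0.65) and Crmp1, a collapsin response mediator (-0.62), in log2 fold change. Their adjusted p values in edgeR lay between 0.00108 and 0.00400, and the groups did not overlap in any of the 6 genes. Over the 37 tested cytoplasmic genes the groups did not overlap in 11, where 18.2% of all tested genes did not overlap. Dorsal calls were Myo6, an actin motor that binds Gipc1 (log2 fold change 0.66, adjusted p = 0.00746), and Farp2, a Rac exchange factor bound by A plexins (0.82, 0.0439), which shares 19.4% of its exonic length with another gene. The Farp2 call was lost in 9 of 10 fits with 1 library left out, all but that without ventral library 5, with adjusted p values up to 0.0996. That of Myo6 was lost without ventral library 2, and that of Crmp1 without dorsal library 1 and with upper-quartile factors. Kalrn, Cdk5 and Ranbp9, like Met, were called under every alternative that was run. Of the listed partners, Mst1r, Erbb2, Cd72, Timd2, Mical1, Fes and Rhod did not pass the expression filter.

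**Figure D5:**
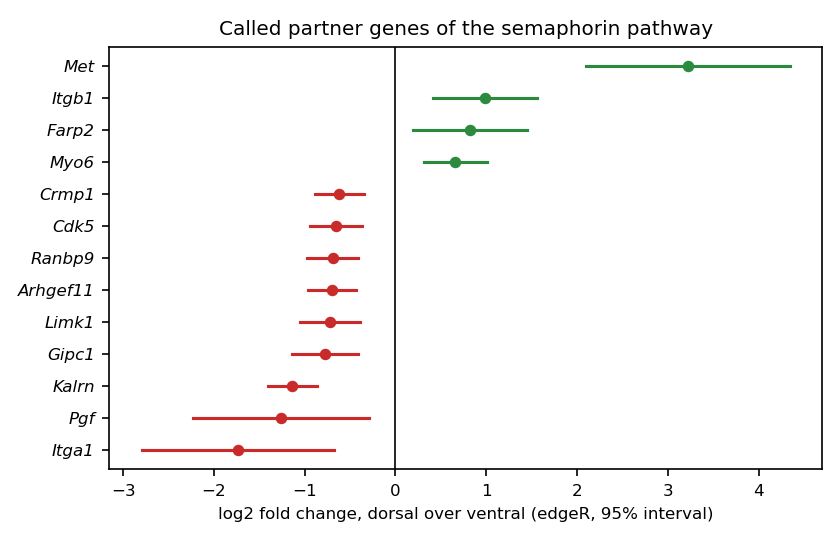
Log2 fold change, dorsal over ventral, with 95% intervals from edgeR for the 13 called partner genes. The 4 dorsal calls (green) run from 0.66 in Myo6 to 3.22 in Met, and the 9 ventral calls (red) from -1.74 in Itga1 to -0.62 in Crmp1.

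How many of the family were called depended on single libraries. Leaving out 1 library at a time gave 3 to 9 calls in place of 5. There were 9 without ventral library 2 (8 dorsal, and Plxnd1 ventral), 8 without dorsal library 1, and 3 without either dorsal library 5 or ventral library 5. Without ventral library 2 or dorsal library 1, 26.7% of the family were called dorsal, where 16% and 15.8% of all genes were. Without dorsal library 5 or ventral library 5 it was 10%, where 13.1% and 12.6% of all genes were. Leaving out both libraries numbered 2, a choice made after the data were seen, gave 9 calls, 8 of them dorsal and Plxnd1 ventral. Sema5a and Plxna4 were called under every alternative that was run.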

How the data were processed

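The sequenced material was TRAP RNA of 5 dorsal and 5 ventral hippocampal pools. Amplification with the Ovation RNAseq V2 kit was done by the authors, who made TruSeq libraries, sequenced 50 bp paired ends, aligned the reads to GRCm38 with STAR 2.5.2b and used HTSeq-count 0.7.2 to count pairs on Ensembl genes. The deposited values are whole-number counts, not normalized. Annotation release and strand setting are not given in the sources used here, so genes that overlap others are reported as uncertain. Amplification from little RNA and the lack of molecular identifiers mean that the floor of 3 counts covers counting error only.

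Groups and replicate numbers came from the sample labels. A gene was tested when 2 or more libraries exceeded 1 CPM, which left 16806, and these were scaled by TMM and compared with the quasi-likelihood test of edgeR 4.0.16 in R 4.3.3, with Benjamini-Hochberg adjustment over all of them. Calls needed, besides an adjusted p below 0.05, that mean CPM plus 1 differed by over 0.58 on the log2 scale. The standard error is taken as the log2 fold change over the square root of F. CPM values in the text are TMM-scaled. Symbols, positions and exonic lengths are those of GENCODE M21 (54809 of 54838 identifiers matched), and 3 antisense genes with Plxna4 in their symbol were left out. The current dispersion method of edgeR was taken as the main one after both it and the older one had been seen. Named are all called genes of the family, those with an adjusted p below 0.05, the most abundant of each class and the called partners. The family, its lists and the tests were chosen with earlier results of these data known. P-values measure the spread between pools, and no sequencing batch is given.

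On counts simulated from these libraries with 200 of 16806 genes changed, the test called 145 (72.5%) of them, with 14 false calls. Every changed gene was given the same size of log2 change, up or down, which exceeded the largest of the family (1.28). The recovery therefore does not describe changes as small as those of the family. A first bar of more than 70% recovery was missed at an earlier setting, and the script was then judged on bias, false calls and well-expressed genes. Alternatives were other scalings, filters and thresholds, DESeq2 1.42.0, edgeR's likelihood-ratio test, protein-coding genes alone, the replicate number as a block, a GC and length correction fitted with mgcv 1.9.3, and each library left out. No pair of libraries within a group agreed within sampling noise. Figures were drawn with matplotlib.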

Additional observations from a re-analysis of the deposited data

Results flagged for a closer look

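Of 60 sets of 5 libraries (30 genes in 2 groups), 8 held a highest or lowest value whose gap to the nearest other, relative to the range, exceeded Dixon's critical value of 0.71, where chance marks about 1 in 20. Ventral library 2 was the highest of its group for Sema3c (26.9 CPM, the others 10.2 to 13.1), Sema6a (36.5 CPM, the others 20.5 to 21.9), Sema6c (6.87 CPM, the others 1.55 to 2.21) and Plxna2 (102 CPM, the others 75.0 to 80.4), and the lowest for Plxnc1 (28.1 CPM, the others 38.3 to 42.3). Dorsal library 2 was the highest for Sema5b (7.99 CPM, the others 1.65 to 2.73) and Plxnb1 (15.0 CPM, the others 3.20 to 6.60). Dorsal library 1 was the highest for Nrp2 (96.1 CPM, the others 83.7 to 86.5), on the side away from the ventral libraries. The cause of these values was not tested.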

How the results depend on the processing

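Calls among semaphorins, plexins and neuropilins numbered 8 without an expression filter (7 dorsal, 1 ventral), 9 with the GC and length correction (9 dorsal, 4 of them among the main 5, where 15.6% of all genes were called dorsal), 2 at an adjusted p below 0.01, and 9 with both libraries numbered 2 left out, in place of 5. Leaving out 1 library gave 3 to 9. Of all genes, 8.64% were called dorsal without the filter, 8.91% at an adjusted p below 0.01 and 17% with both libraries numbered 2 left out. Partner calls numbered 21 with no fold threshold in place of 13, and 10 to 15 with 1 library left out. Of the 13 partner calls, those of Pgf and Farp2 were each lost in 9 of 10 fits with 1 library left out and in 5 other settings, those of Crmp1 and Myo6 without 1 library each, and those of Itga1 and Itgb1 only at an adjusted p below 0.01. Under the other alternatives both counts stayed within 1.5 times. The cause of these shifts was not tested, except that a stricter p and a dropped fold threshold act by construction.

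The replicate number as a block gave 4 calls, without Sema4d (edgeR adjusted p = 0.0542), and 12 partner calls, and with the GC and length correction 7 and 10. The 4 and the 7 were all dorsal, 13.3% and 23.3% of the family, where 15.8% and 16% of all genes were called dorsal. Ventral calls made up 9.96% and 11.3% of all genes in these 2 fits. Between libraries of equal number, the correlations of deviations from the group means were -0.0204 to 0.0426, and 3 libraries correlated best with their own number. These values cannot show whether equal numbers share mice, since variation between separate precipitates could hide it.

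Directions turned only in genes without a call, in log2 fold change. With the GC and length correction Sema3d was -0.056, Sema4b 0.18 and Sema4g 0.23, and with the block added Sema4b was 0.25 and Sema4g 0.17. With both libraries numbered 2 left out Sema4g was 0.11, Sema6a 0.28 and Plxnc1 -0.097. Leaving out 1 library, the ranges were -0.028 to 1.20 for Sema3b, -0.21 to 0.070 for Sema4b, -0.21 to 0.30 for Sema4c, -0.19 to 0.19 for Sema4g, -0.25 to 0.11 for Sema6a, -0.23 to 0.30 for Plxna3 and -0.055 to 0.090 for Plxnc1. Genes with under about 5 CPM had intervals of 1 log2 unit or more. So did some more abundant genes, such as Sema3c (-0.19 to 1.06) and Sema3e (0.31 to 1.32). Depth and replicate number limit what can be said of genes with such intervals.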
